A study of Mus musculus with 7 samples.

Results

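Chemokines and their receptors were followed in left ventricles of mice by RNA sequencing. The genes were taken by name: every gene whose mouse symbol starts with Ccl, Cxcl, Ccr and a number, Cxcr, Cx3c or Ackr, and whose counts summed to at least 30 over the 7 libraries. The rule found 41 genes, out of 58 with such a name and 20927 entries kept from the count table. Of these 41 members 25 encode ligands, 12 signalling receptors and 4 atypical receptors.

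The study asked what a single amino acid change in titin, A178D, does to the mouse heart. Its groups were 3 WT ventricles (replicates 1, 3 and 4) and 4 ventricles of mice homozygous for A178D (replicates 1 to 4), all C57BL/6J by their labels and with 1 library for each sample. Poly(A)+ RNA was sequenced in read pairs from a strand-marking kit, and libraries held from 41102868 to 54245530 counts in WT and from 33080675 to 52345529 in A178D. The labels give no treatment, age or sex for the sequenced mice. The base change, together with a silent change that makes a restriction site, was placed in C57BL/6N embryonic stem cells (JM8F6) with CRISPR-Cas9 and a repair template, so the line goes back to clonally grown stem cells. By the study's methods, its founders were crossed onto C57BL/6J for at least 5 generations, and WT mice were littermates. Gene counts do not read the altered base. Titin itself, Ttn, stood between 6247 and 7245 CPM in WT and between 4087 and 6490 CPM in A178D, with overlap. CPM are counts per 1000000 counts of the library, after edgeR's TMM scaling. Ttn had a log2 fold change (A178D over WT) of -0.27 (95% interval -0.53 to -0.006), with an edgeR adjusted p of 0.287. The ventricular marker Myh6, the main cardiac myosin heavy chain of the adult mouse, led its list with 35700 to 41670 CPM. Of 6 atrial markers Bmp10 was at 0 in every heart, Sln had 4 counts and Myl7 18, while Myl4, Nr2f2 and Nppa were tested and are given below.

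Chemokines are small secreted proteins that guide leukocytes and other cells along gradients held on heparan sulfate. They act through receptors coupled to inhibitory G proteins, while atypical receptors bind chemokines without that signal and remove or move them. In the heart, Ccl2 and Ccr2 are known for bringing in monocytes, Cxcl12 and Cxcr4 for vessel growth and progenitor cells, and the membrane-bound ligand Cx3cl1 (fractalkine) for its receptor Cx3cr1 on macrophages and monocytes.

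Of the 41 members, 35 reached 10 counts in 3 or more libraries and were tested: 22 ligands and 13 receptors. The 6 that did not pass were Ccl3, Ccl4, Ccr1l1, Ackr1, Cxcl2 and Ccr9, so nothing can be said of their difference between genotypes. Ackr1, which carries chemokines across vessel walls, had the most counts of those 6, 48, with 8, 8 and 4 in WT and 9, 14, 5 and 0 in A178D. Its exons also overlap Cadm3 on the same strand, so some counts could belong to that gene. Ccl22, a ligand of Ccr4, had the fewest counts of those that passed, 74. Ccl19 passed on exactly 3 libraries, WT replicate 4 and A178D replicates 2 and 3. At the limit of 30 counts, Ccl4, a macrophage product, lay just inside with 33 and the Ccr4 ligand Ccl17 just outside with 28. Ccl4 had 2, 8 and 2 counts in WT and 6, 10, 2 and 3 in A178D.

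A further 17 genes with such a name had fewer than 30 counts. Among them were Cxcr2, the neutrophil receptor, with 27 counts, the eosinophil receptor Ccr3 with 12, the B cell attractant Cxcl13 with 8, Ccr8 with 3 and Ccr4 with 2. Another 8 were at 0: Ccl1, Ccl20, Ccl21a, Ccl21b, Ccl27b, Cxcl15, Cxcl17 and Cxcr1. Ccl27a has 2 entries in the table under 1 identifier, and its second, at 0, is not counted among these. A count of 0 over all libraries allows up to 0.00951 CPM (3 counts), or 0.019 CPM where a fragment gives 2 counts, limits that cover counting error only. Ccl21a, Ccl21b and Ccl27b have near-identical copies in the mouse genome, and how reads matching several copies were counted is not given in the sources used here. Their 0 is therefore uncertain, as are the levels of Ccl27a and Ccl19, which also have copies.

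Levels of different genes were compared as mean CPM per kilobase of exons over the 7 hearts. Cxcl12 was highest with 41.1 CPM per kilobase, above 93.0% of tested genes, and its scavenging receptor Ackr3 followed with 27.4. Together they made up 52.9% of the level summed over the 41 members. Next came Cxcl14 with 15.5 and Ccl6 with 6.39. Cx3cl1, Cxcl16, Cxcr4 and Cxcl9 lay close together, from 3.54 down to 3.10 CPM per kilobase. Most signalling receptors stood lower: after Cxcr4, Cx3cr1 was next with 1.16, then Ccr2 with 0.843. The lowest member was Ccr9, a gut-homing receptor, with 0.0135. Exon length here covers all annotated transcripts, so genes with long, rarely used exons are placed too low.

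**Figure D1:**
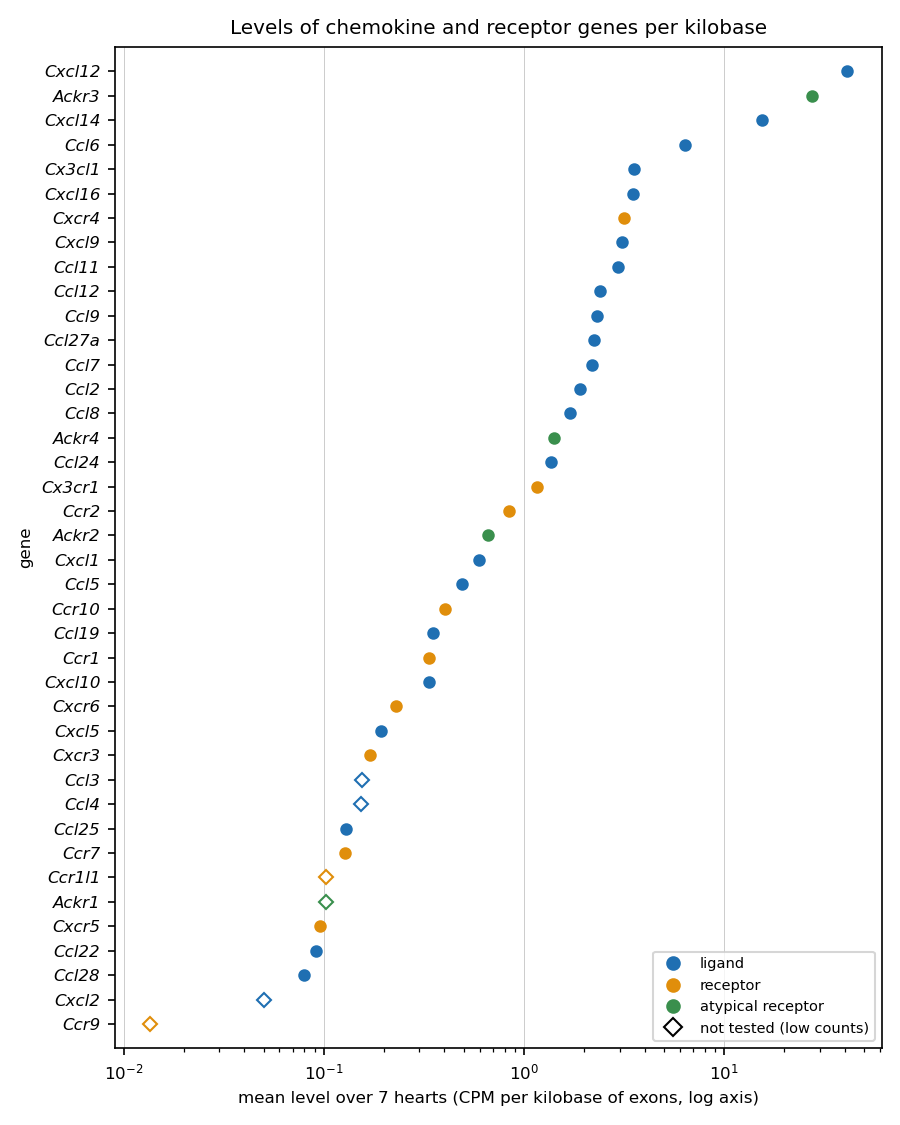
Mean level of 40 of the 41 members over 7 hearts, in CPM per kilobase of exons on a log axis. Filled circles are members that passed the filter on low counts and open diamonds the 6 that did not. Cxcl12 (41.1) and Ackr3 (27.4) lie above all others.

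The clearest genotype difference was in the receptor Cx3cr1 (ENSMUSG00000052336, chr9:119901616-120069879, minus strand, GRCm38), which marks tissue macrophages and patrolling monocytes. Its level was 3.84, 2.68 and 2.36 CPM in WT replicates 1, 3 and 4 and 7.09, 8.23, 7.10 and 5.31 CPM in A178D replicates 1 to 4. Every A178D heart was above every WT heart, with WT replicate 1 the highest of the WT hearts and A178D replicate 4 the lowest of its group. Cx3cr1 rose from 2.96 ± 0.780 CPM (SD, n = 3) to 6.93 ± 1.21 CPM (SD, n = 4). By edgeR's quasi-likelihood test the log2 fold change was 1.23 (SE 0.19, 95% interval 0.81 to 1.64), a fold of 2.34, with a Benjamini-Hochberg adjusted p of 0.0065. Without WT replicate 3 the log2 fold change was 1.15 and edgeR's adjusted p 0.053, and without any other single library the adjusted p stayed under 0.05. Among the 145 genes called higher over the whole table, Cx3cr1 was number 18 by log2 fold change. An annotated antisense gene, Gm33858, overlaps its exons and is not among the counted genes.

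The ligand Cx3cl1 (ENSMUSG00000031778, chr8:94772009-94782427, plus strand), made mainly by endothelium in the heart, stood at 13.96, 8.24 and 9.45 CPM in WT and at 17.99, 17.5, 16.0 and 14.3 CPM in A178D. Here too each A178D heart was above each WT heart, but WT replicate 1 and A178D replicate 4 lay almost level. Its log2 fold change of 0.64 (SE 0.16, 95% interval 0.30 to 0.98) just missed the limit in edgeR, with a Benjamini-Hochberg adjusted p of 0.0506. DESeq2 gave an adjusted p of 0.004 and limma-voom 0.0385. Leaving out WT replicate 1 in edgeR gave a log2 fold change of 0.90 and an adjusted p of 0.00188. Without A178D replicate 4 edgeR's adjusted p was 0.039. Without any other single library it was above 0.05, from 0.0959 (without A178D replicate 3) to 0.227 (without WT replicate 3).

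Macrophage markers were read beside this receptor, since bulk tissue cannot tell fewer cells of a type from less RNA per cell. All 15 listed macrophage markers were tested and 12 had positive log2 fold changes, with a median of 0.18. Lyz2, the lysozyme of myeloid cells and the most abundant of them, rose, with 109, 137 and 137 CPM in WT and 177.8, 165, 153 and 179 CPM in A178D (log2 fold change 0.40, SE 0.09, edgeR adjusted p 0.0339). It was the 1 marker of the list called by edgeR and by limma-voom, while DESeq2 called Adgre1, C1qb and Lyz2 higher and Lyve1 lower. At an unadjusted p under 0.05 in edgeR, 4 of the 15 markers were higher and 2 lower. Over all tested genes 16.7% had such a p in either direction and edgeR called 2.35%, shares to set beside the counts of each list below. Without a single library edgeR's adjusted p for Lyz2 ran from 0.045 to 0.117, and it stayed under 0.05 only without A178D replicate 3 or 4. Like Lyz2, the pan-macrophage marker Adgre1 had each A178D heart above each WT heart, with 12.9, 13.5 and 14.6 CPM in WT and 17.2, 17.6, 15.4 and 18.3 CPM in A178D. So did C1qb, a complement subunit made by macrophages, with 9.66, 15.7 and 13.6 CPM in WT and 18.7, 16.9, 18.4 and 19.8 CPM in A178D. These 3 of 15 markers without overlap are 20%, beside 16.1% of all tested genes. The negative log2 fold changes, all with overlap, were those of Lyve1, Cd163 and Mertk (-0.19), while Folr2 (0.18), Timd4 (0.04) and Mrc1 (0.08), which also mark resident macrophages, were positive with overlap. Lyve1 had 16.1, 25.1 and 21.6 CPM in WT and 17.5, 15.3, 13.9 and 15.6 CPM in A178D (log2 fold change -0.43, SE 0.13, edgeR adjusted p 0.12). Cd163 had 16.8, 27.1 and 23.6 CPM in WT and 17.4, 21.4, 16.5 and 16.7 CPM in A178D (log2 fold change -0.32, SE 0.14, edgeR adjusted p 0.288). Summed over the list, the level was 418, 552 and 496 CPM in WT and 577, 571, 508 and 574 CPM in A178D, so the groups overlapped. No macrophage marker was at 0. Cx3cr1 as a percentage of that sum was 0.919, 0.485 and 0.476 in WT and 1.23, 1.44, 1.40 and 0.926 in A178D. The A178D hearts were still all above the WT hearts on this scale, with WT replicate 1 and A178D replicate 4 nearly equal. As a percentage of the summed monocyte markers it was 10.2, 8.96 and 8.71 in WT and 28.9, 25.6, 14.9 and 15.1 in A178D, again without overlap. With Nr4a1 left out of that list, a choice made after seeing the data, it was 38.5, 21.6 and 22.6 in WT and 46.7, 53.9, 55.5 and 40.9 in A178D. The part that numbers of any one cell type play in the level of Cx3cr1 was not tested.

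**Figure D2:**
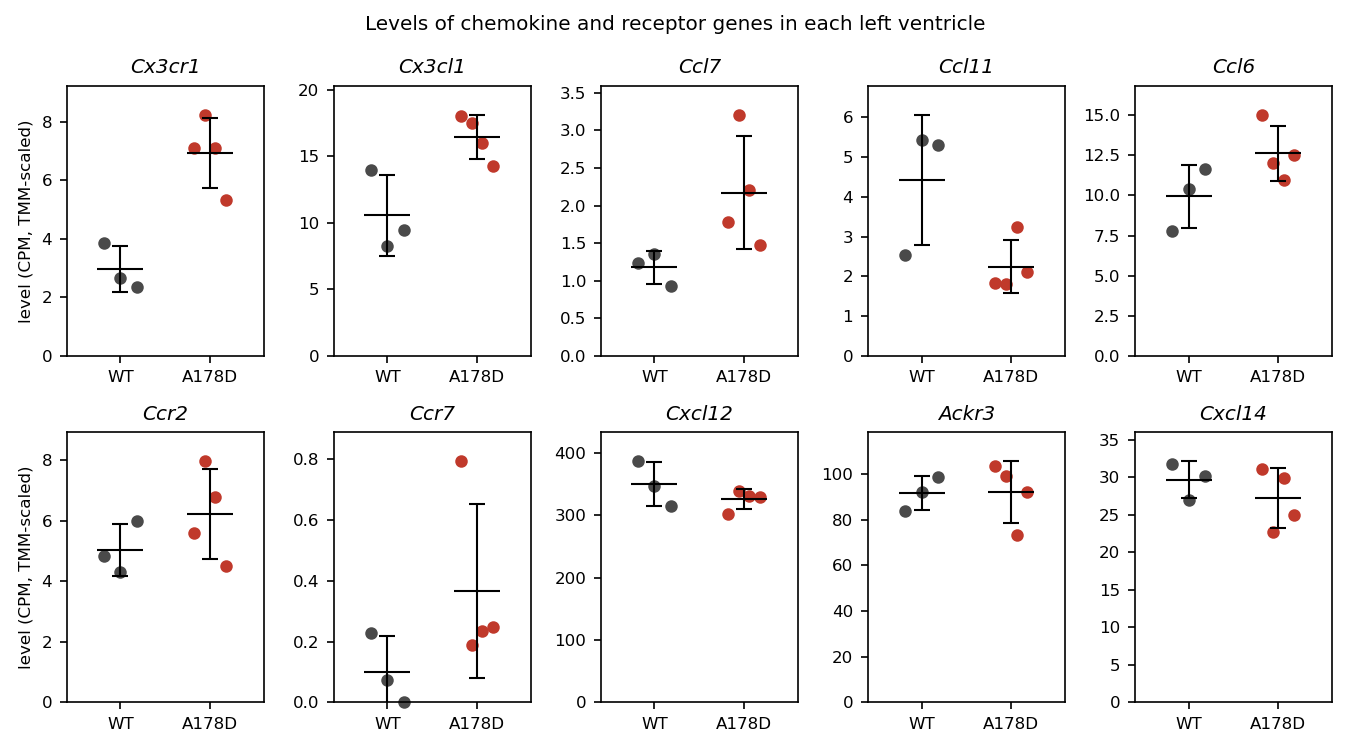
Level in CPM of 10 members in each heart, WT in grey and A178D in red, with the mean and SD of each group in black (bars are drawn down to 0 only). Cx3cr1, Cx3cl1 and Ccl7 have all 4 A178D hearts above all 3 WT hearts, while Cxcl12 and Ackr3 overlap.

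Among the CC ligands, 14 of 16 were tested, 11 with a positive and 3 with a negative log2 fold change, and their median was 0.20. edgeR called none, with 3 at an unadjusted p under 0.05, limma-voom called none either, and DESeq2 called Ccl11. Ccl7, a ligand of Ccr2 that draws monocytes, lay at 1.24, 1.36 and 0.935 CPM in WT and 1.78, 3.21, 2.20 and 1.48 CPM in A178D. Each A178D heart was above each WT heart, by a small margin in replicate 4 and a large one in replicate 2. Its log2 fold change was 0.89 (SE 0.29, 95% interval 0.27 to 1.505), with an edgeR adjusted p of 0.134.

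Ccl11 (eotaxin), the eosinophil attractant, had 2.55, 5.43 and 5.32 CPM in WT and 1.83, 1.82, 3.23 and 2.10 CPM in A178D. WT replicates 3 and 4 were above all A178D hearts, but WT replicate 1 was below A178D replicate 3. The log2 fold change was -0.98 (SE 0.27, 95% interval -1.56 to -0.39), with a Benjamini-Hochberg adjusted p of 0.0835 in edgeR and 0.0154 in DESeq2. Without a single library edgeR's adjusted p ran from 0.00832 (without WT replicate 1, log2 fold change -1.25) to 0.315 (without WT replicate 3, -0.80), and without WT replicate 1 alone was it under 0.05. Its receptor Ccr3 had the 12 counts given above.

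Ccl2, Ccl7, Ccl11, Ccl12 and Ccl8 lie side by side at chr11:82035571-82116799 and their differences had unlike signs. Ccl7 and Ccl11 are direct neighbours and had log2 fold changes of 0.89 and -0.98. Ccl2, the main monocyte attractant, had 0.21 (SE 0.23), Ccl12 0.11 (SE 0.31) and Ccl8 0.77 (SE 0.41), with overlap between genotypes in each. The other cluster, Ccl5, Ccl9, Ccl6, Ccl3 and Ccl4 at chr11:83525778-83664683, had 3 tested members, with log2 fold changes from 0.30 to 0.35.

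Ccl6, a macrophage product that acts on Ccr1, was the most abundant CC ligand per kilobase. Its levels were 7.80, 10.4 and 11.6 CPM in WT and 15.0, 12.01, 10.96 and 12.5 CPM in A178D. WT replicate 1 was lowest and A178D replicate 1 highest, and WT replicate 4 overlapped A178D replicate 3. The log2 fold change was 0.35 (95% interval 0.04 to 0.66), with an unadjusted p of 0.0313 and an adjusted p of 0.249 in edgeR.

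Ccl5, which T cells release and which binds Ccr1, ranged widely, with 0.266, 0.734 and 0.246 CPM in WT and 0.347, 1.06, 0.445 and 0.185 CPM in A178D. The highest and the lowest heart both carried A178D, and the 95% interval of the log2 fold change ran from -0.91 to 1.56. Ccl19, the Ccr7 ligand of lymphoid stroma, had counts of 0, 0 and 22 in WT and 8, 38, 18 and 8 in A178D. WT replicates 1 and 3 were at 0, but WT replicate 4 overlapped the A178D hearts, since its 0.541 CPM lay between 0.721 and 0.422 CPM in A178D replicates 2 and 3. In edgeR the log2 fold change was 1.32 with a 95% interval from -0.76 to 3.40, and 0.68 without WT replicate 3. limma-voom gave 3.39 (SE 1.11, adjusted p 0.137). Ccl22 had counts of 22, 12 and 2 in WT and 0, 22, 16 and 0 in A178D, with full overlap and a log2 fold change of -0.15 (95% interval -2.11 to 1.81) in edgeR. limma-voom gave -1.20 and the replicate block -1.16, and without a single library it ran from -0.80 to 0.58.

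The CXC ligands gave 7 tested genes of 8, of which 5 had positive log2 fold changes, and their median was 0.21. None was called by edgeR, DESeq2 or limma-voom, and in edgeR 0 had an unadjusted p under 0.05. Cxcl12, which keeps progenitor cells and lymphocytes in place, was at 386.5, 347 and 315.5 CPM in WT and at 302.5, 340, 332 and 330 CPM in A178D. Hearts overlapped, and with these counts the interval was narrow, a log2 fold change of -0.10 (95% interval -0.27 to 0.07). Cxcl14, a ligand of skin and other epithelia with no settled receptor, had 31.8, 27.0 and 30.2 CPM in WT and 31.1, 22.75, 29.9 and 24.95 CPM in A178D. Those groups overlapped as well, with a log2 fold change of -0.13 (95% interval -0.36 to 0.11).

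Cxcl16, a membrane-bound ligand of Cxcr6, varied least of the tested members, with 9.61, 10.2 and 10.4 CPM in WT and 11.5, 10.7, 10.3 and 11.3 CPM in A178D. The highest heart was 1.19 times the lowest, the groups overlapped, and the log2 fold change was 0.12 (95% interval -0.10 to 0.33). Its exons overlap Zmynd15 on the opposite strand, and whether strand was used in counting is not given in the sources used here. Cxcl9, an interferon gamma target that draws T cells through Cxcr3, had 7.65, 8.91 and 9.25 CPM in WT and 8.62, 12.05, 11.5 and 7.41 CPM in A178D. A178D replicates 2 and 3 were above all WT hearts and A178D replicate 4 was below them, with a log2 fold change of 0.21 (95% interval -0.14 to 0.55). Its neighbour Cxcl10, another interferon target, was far lower, with a mean of 0.614 CPM in WT and 0.855 CPM in A178D. Exons of Cxcl10 overlap Art3 on the opposite strand, which had 94267 counts over all libraries beside 243 for Cxcl10. The level of Cxcl10 is therefore uncertain where strand was not used in counting. Among the CC ligands Ccl25 (297 counts, beside 13653 for Elavl1) and Ccl27a (1652 counts, beside 25498 for Il11ra1) have such an overlap too.

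For the CC receptors, 5 of 7 were tested and all 5 log2 fold changes were positive in edgeR with TMM scaling, from 0.02 in Ccr10 to 1.75 in Ccr7, although Ccr1 turned negative with the replicate number as a block. No CC receptor was called by edgeR, DESeq2 or limma-voom, and in edgeR 2 had an unadjusted p under 0.05. Ccr2, the receptor of Ccl2, Ccl7 and Ccl12 on inflammatory monocytes, had 4.83, 4.29 and 5.98 CPM in WT and 5.58, 7.95, 6.77 and 4.51 CPM in A178D. A178D replicate 2 stood highest and WT replicate 3 lowest, the groups overlapped, and the log2 fold change was 0.31 (95% interval -0.09 to 0.72).

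Ccr7, which brings dendritic cells and T cells to lymph nodes, was near the limit of detection, with 12, 4 and 0 counts in WT and 32, 10, 10 and 8 counts in A178D. A178D replicate 1 alone held 32 of the 76 counts, and WT replicate 1 lay among the other A178D hearts. The log2 fold change of 1.75 had a 95% interval from 0.03 to 3.47 and an edgeR adjusted p of 0.289, and without a single library it ran from 1.05 (without A178D replicate 1, adjusted p 0.615) to 3.06 (without WT replicate 1, adjusted p 0.136). Ccr1, a receptor of Ccl6, Ccl9 and Ccl5, had 0.609, 1.43 and 0.738 CPM in WT and 1.49, 1.10, 0.562 and 0.741 CPM in A178D. High and low hearts were found in both groups, with a 95% interval of the log2 fold change from -0.79 to 0.92.

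Monocyte and lymphoid markers were read beside these receptors. Of 8 monocyte markers 7 were tested and all 7 had positive log2 fold changes, with a median of 0.41, yet none was called by edgeR, DESeq2 or limma-voom and 1 had an unadjusted p under 0.05 in edgeR (Itgam, log2 fold change 0.28, SE 0.13, edgeR adjusted p 0.289). Their summed level was 37.9, 29.9 and 27.1 CPM in WT and 24.5, 32.1, 47.5 and 35.3 CPM in A178D, with overlap. Nr4a1, which other cells also make, was the most abundant in each heart but A178D replicate 1, where it had 9.32 CPM and Itgam 10.3. Without Nr4a1, left out after seeing the data, the sum was 9.99, 12.4 and 10.4 CPM in WT and 15.2, 15.3, 12.8 and 12.97 CPM in A178D, each A178D heart above each WT heart. For T cells 7 of 8 counted markers were tested, with a median log2 fold change of 0.04 and summed levels of 4.21, 4.88 and 5.51 CPM in WT and 5.13, 5.10, 4.10 and 5.47 CPM in A178D. Cd247 was their most abundant gene, and Cd3d had the lowest p (log2 fold change 3.22, SE 0.95, adjusted p 0.101 in edgeR), a gene at 0 in WT replicates 1 and 3. limma-voom called Cd3d and edgeR and DESeq2 called no T cell marker. Dendritic cell markers, 8 of 8 tested, 1 with an unadjusted p under 0.05 in edgeR and none called by the same 3 tools, had a median of 0.00 and summed to 58.9, 57.7 and 48.7 CPM in WT and 57.6, 57.0, 57.4 and 61.8 CPM in A178D, most of it Fscn1. Their lowest p was in Siglech (log2 fold change -1.21, SE 0.54, edgeR adjusted p 0.279). The part of these cells in the receptor levels was not tested.

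All 4 CXC receptors were tested, 1 with a positive and 3 with a negative log2 fold change, and their median was -0.16. Neither edgeR, DESeq2 nor limma-voom called any, and 0 had an unadjusted p under 0.05 in edgeR. Cxcr4, the signalling receptor of Cxcl12, had 6.39, 6.16 and 4.04 CPM in WT and 6.44, 4.40, 6.25 and 6.24 CPM in A178D. Each group held 1 low heart, WT replicate 4 and A178D replicate 2, and the log2 fold change was 0.07 (95% interval -0.33 to 0.46). It turned to -0.01 with offsets for transcript length and GC content. Cxcr3, Cxcr6 and Cxcr5, receptors of T and B cells, had group means from 0.274 to 0.480 CPM. Exons of Cxcr5 overlap Bcl9l on the opposite strand, which had 15511 counts over all libraries beside 99 for Cxcr5, so its level is uncertain where strand was not used in counting.

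The atypical receptors were Ackr1, not tested, and Ackr2, Ackr3 and Ackr4, which had log2 fold changes of 0.03, 0.01 and 0.21. No tool called any of the 3 (edgeR, DESeq2, limma-voom), and 0 had an unadjusted p under 0.05 in edgeR. Ackr4 overlaps Acad11 on the opposite strand, a gene with 100317 counts over all libraries beside 2390 for Ackr4, and its values carry the same uncertainty. Ackr3, which takes up Cxcl12, had 83.8, 92.0 and 98.7 CPM in WT and 103.6, 99.2, 73.1 and 92.0 CPM in A178D. The highest and the lowest heart were both A178D, with a 95% interval of the log2 fold change from -0.22 to 0.23. Ackr2, a scavenger of inflammatory CC ligands, had 1.84, 2.29 and 1.99 CPM in WT and 1.41, 2.33, 2.34 and 2.25 CPM in A178D. A178D replicate 1 was the lowest of all, the other A178D hearts lay near WT replicate 3, and the 95% interval of the log2 fold change was -0.46 to 0.52. The sign of Ackr3 turned in limma-voom, and those of both Ackr3 and Ackr2 with the replicate number as a block, all close to 0.

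Taking the family together, edgeR's quasi-likelihood test called 1 of 35 tested members at a Benjamini-Hochberg adjusted p under 0.05 (2.86%), beside 2.35% of all 13894 tested genes. In the higher direction the background was 1.04%, with Cx3cr1 as the member, and in the lower direction it was 1.31%, with 0 members. At an unadjusted p under 0.05 there were 7 members (6 higher, 1 lower), 20% beside 16.7% of all tested genes. Hearts of the genotypes did not overlap in 3 members, Cx3cr1, Cx3cl1 and Ccl7, or 8.57%, beside 16.1% of all tested genes. DESeq2 called 3 of the 30 members to which it gave an adjusted p (Cx3cl1, Ccl11 and Cx3cr1), 10% beside 5.14% of 13355 genes. limma-voom called 2 of 35 (Cx3cl1 and Cx3cr1), 5.71% beside 2.35%. Without WT replicate 3 edgeR called 0 members, without WT replicate 1 it called 3 and without A178D replicate 4 it called 2. Over the whole table the count of 327 called genes fell to 53 without WT replicate 3, 82 without WT replicate 4, 90 without A178D replicate 1, 190 without A178D replicate 3 and 216 without A178D replicate 2.

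More members lay above 0 than below: 27 positive and 8 negative log2 fold changes, with a median of 0.18 beside 0.00 over all tested genes. The split narrowed to 21 positive and 14 negative with the replicate block and with offsets for length and GC content, and to 21 and 13 without A178D replicate 2. The median of the members was above 0 in each of the 16 other settings, from 0.11 to 0.36. The 16 tested members that the rule for values heart by heart did not take had log2 fold changes from -0.35 in Ccl28 to 0.81 in Cxcl5, and the lowest adjusted p among them in edgeR was 0.368. Many of the higher values came from the same hearts: A178D replicate 2 was the highest heart for 14 tested members and A178D replicate 1 for 9. WT replicate 4 was the lowest for 9 and WT replicate 1 for 7. Where no heart was at 0, the ratio of the highest to the lowest heart ranged from 1.19 in Cxcl16 to 5.73 in Ccl5, with a median of 2.08.

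**Figure D3:**
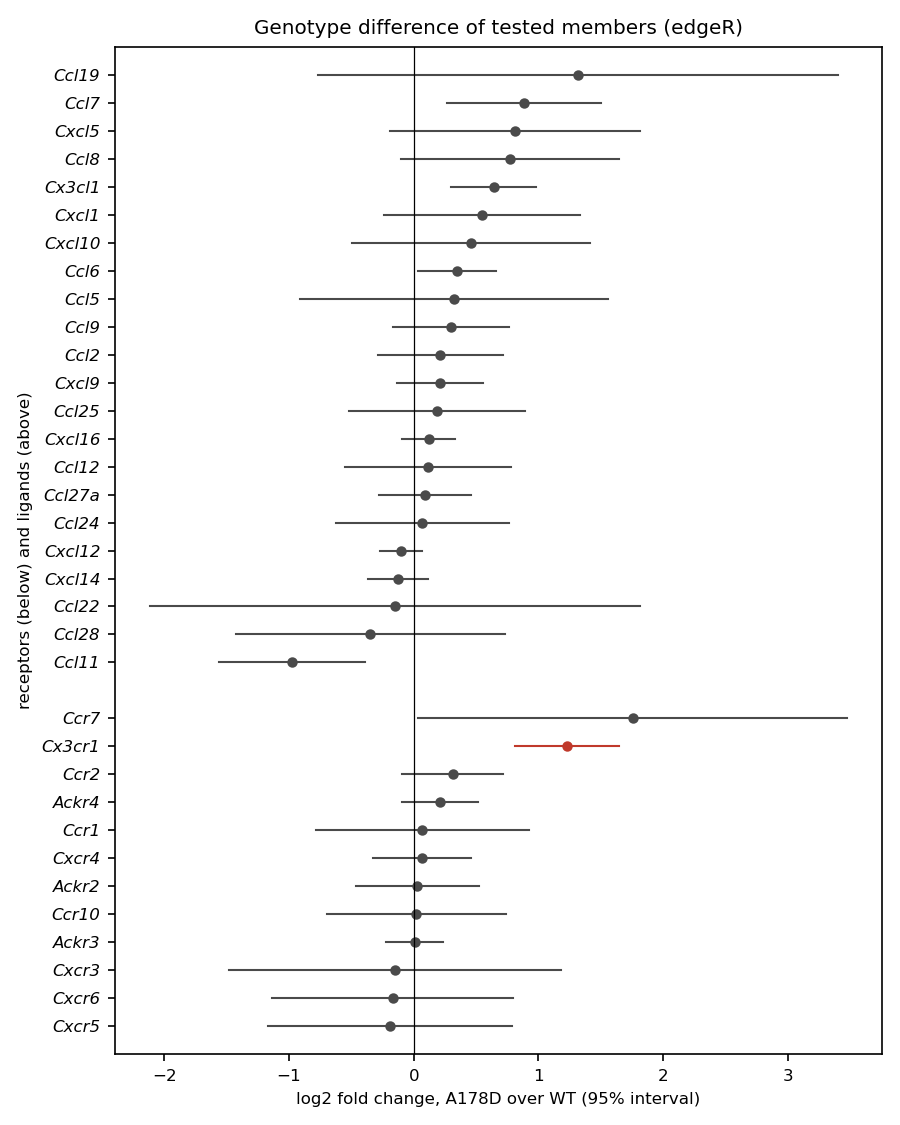
Log2 fold change (A178D over WT) of 34 of the 35 tested members with 95% intervals from edgeR, ligands above and receptors below. Cx3cr1 (1.23), in red, is the member called; wide intervals belong to members with few counts such as Ccl22 and Ccl19.

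Other genes of the chemokine pathway were tested in the same fit, 95 in 6 lists. edgeR called 1 of them lower and 0 higher, DESeq2 4 lower and 2 higher, and limma-voom 2 lower. Over the whole table edgeR called 2.35% of genes, DESeq2 5.14% and limma-voom 2.35%. At an unadjusted p under 0.05 in edgeR, 8 of the 95 were higher and 6 lower, beside 16.7% of all tested genes in either direction. Ligands and receptors outside the naming rule (10 tested, median log2 fold change 0.04) had 0 at an unadjusted p under 0.05 and were called by none of these tools, and Cd74, a receptor of Mif and the invariant chain, was their most abundant gene. Their lowest p belonged to Xcr1, the receptor of cross-presenting dendritic cells, with a log2 fold change of 0.62 (SE 0.32, edgeR adjusted p 0.345). Among 11 genes of processing and retention (median 0.04) edgeR called 0, limma-voom 0 and DESeq2 Ndst1, and 3 had an unadjusted p under 0.05 in edgeR, 2 higher and 1 lower. The higher ones were Ext1, which builds heparan sulfate (log2 fold change 0.21, SE 0.07, edgeR adjusted p 0.171), and the syndecan Sdc4 (0.29, SE 0.11, edgeR adjusted p 0.223), both without overlap. Ndst1, which sulfates the heparan sulfate that holds chemokines, had 86.8, 80.2 and 80.3 CPM in WT and 66.7, 69.1, 73.3 and 50.9 CPM in A178D, each A178D heart below each WT heart (log2 fold change -0.34, SE 0.10, edgeR adjusted p 0.11).

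Of 28 genes of G proteins and signalling (median -0.04), 6 had an unadjusted p under 0.05 in edgeR, 4 higher and 2 lower, beside 16.7% of all tested genes. None of the 28 was called by edgeR or limma-voom, while DESeq2 called 2, both higher, of which Gng5, a G protein gamma subunit, is named here. In the 13 tested genes of receptor desensitization (median -0.01) 2 had an unadjusted p under 0.05, both lower, Rgs4 and Rgs5, regulators that shorten G protein signals. edgeR called 0 of the 13, DESeq2 both of these and limma-voom Rgs4. Rgs4 had 28.9, 26.7 and 26.7 CPM in WT and 17.99, 20.95, 21.1 and 24.2 CPM in A178D (log2 fold change -0.38, SE 0.10, edgeR adjusted p 0.0635), and its groups did not overlap. Rgs5 is also in the list of smooth muscle and pericyte markers.

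Inducers of chemokine genes held 1 call. For NF-kB and cytokine genes (24 tested, median 0.01) edgeR, DESeq2 and limma-voom called 0, and 1 had an unadjusted p under 0.05, the adaptor Myd88, at 15.3, 15.9 and 14.5 CPM in WT and 17.7, 17.7, 17.6 and 17.9 CPM in A178D (log2 fold change 0.22, SE 0.09, edgeR adjusted p 0.218). In the interferon gamma arm (9 tested, median 0.01) Jak1, the kinase below interferon and interleukin receptors, fell. Jak1 had 231, 252 and 244 CPM in WT and 203, 192, 198 and 184 CPM in A178D, each A178D heart below each WT heart (log2 fold change -0.32, SE 0.07, edgeR adjusted p 0.025). Without a single library its adjusted p ran from 0.0189 to 0.153, and it stayed under 0.05 only without WT replicate 1 or A178D replicate 4. At an unadjusted p under 0.05 in edgeR 1 gene of the arm was lower, Jak1, and 1 higher, Irf8, a transcription factor of myeloid cells. Irf8 had 4.58, 4.95 and 4.70 CPM in WT and 5.13, 7.04, 5.55 and 6.79 CPM in A178D, without overlap (log2 fold change 0.37, SE 0.15, edgeR adjusted p 0.229).

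Vessel and stromal cells are other known sources of these ligands. Blood endothelial markers (13 of 13 tested, median log2 fold change 0.08) were called 0 times by edgeR and limma-voom and once, in Cldn5, by DESeq2, with 1 at an unadjusted p under 0.05 in edgeR. They summed to 1719, 1657 and 1614 CPM in WT and 1702, 1662, 1767 and 1822 CPM in A178D, led by Fabp4, with overlap. As a percentage of that sum Cx3cl1 was 0.812, 0.497 and 0.586 in WT and 1.06, 1.05, 0.905 and 0.783 in A178D, so WT replicate 1 then lay above A178D replicate 4. In smooth muscle and pericytes all 10 markers had negative log2 fold changes (median -0.36). Acta2 (-0.59), Myh11 (-0.67), Tagln (-0.62) and Cnn1 (-0.82) fell in edgeR, with adjusted p from 0.00587 to 0.0337, and the most abundant was Abcc9. DESeq2 also called Notch3, Pdgfrb and Rgs5 lower, and, of the next lists, Col1a1 of fibroblasts higher and Lyve1 of lymphatic endothelium lower. The smooth muscle and pericyte markers summed to 1500, 1511 and 1446 CPM in WT and 1137, 1249, 1321 and 1062 CPM in A178D, without overlap. A178D replicate 4, lowest in this sum, had 426 CPM of Abcc9 beside 555 to 628 CPM in the other hearts. It was also lowest in Ttn (4087 CPM) and Ryr2 (1520 CPM) but not in Vwf (73.5 CPM), all with a long total exon length. Other genes of that kind went both ways. A178D replicate 4 was lowest in Ndst1 (50.9 CPM) and Stat3 (131.6 CPM) but not in Ext1 (38.2 CPM) or Prex1 (13.9 CPM). Acta2, Myh11, Tagln and Cnn1 were lowest in A178D replicate 1. What sets these hearts apart was not tested. Fibroblast markers (9 tested, median 0.14, led by Gsn) included Col3a1, which rose (log2 fold change 0.62, edgeR adjusted p 0.0317), and summed to 2518, 2813 and 2373 CPM in WT and 2932, 2839, 2740 and 2894 CPM in A178D, with overlap. In lymphatic endothelium (6 tested, median -0.16, led by Prox1) Reln fell (log2 fold change -0.72, edgeR adjusted p 0.033), and the sum was 126, 120 and 125 CPM in WT and 111, 117, 108 and 89.8 CPM in A178D, without overlap. At an unadjusted p under 0.05 in edgeR 3 of its genes were lower (Reln, Flt4 and Lyve1) and 0 higher. WT replicate 3 stood apart in Mmrn1 of this list, with 0.0367 CPM beside 3.94 to 7.12 CPM in the other hearts. The cause was not tested. With single libraries left out, Acta2 and Tagln were called each time, while the call of Myh11 was lost without WT replicate 3 or 4 (adjusted p up to 0.0547 in edgeR) and that of Cnn1 without any library but A178D replicate 4 (up to 0.109). Col3a1 lost its call without WT replicate 3 or A178D replicate 1, 2 or 3 (up to 0.113), and Reln without WT replicate 3 or 4 or A178D replicate 1 or 4 (up to 0.136). What these cells contribute to Cx3cl1, Ccl7 or Ccl11 was not tested.

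Neutrophil markers summed to 1.87 to 3.87 CPM in WT and 2.19 to 4.66 CPM in A178D, led by Csf3r, with Ly6g and Ngp at 0 in every heart. B cell markers summed to 2.07 to 4.42 CPM in WT and 2.84 to 5.60 CPM in A178D, led by Cd79b, and NK cell markers to 0.799 to 2.41 and 0.984 to 2.01 CPM, led by Nkg7. Mast cell markers summed to 12.6 to 16.1 CPM in WT and 11.4 to 12.5 CPM in A178D, led by Kit, and platelet markers to 16.9 to 20.2 and 15.5 to 24.9 CPM, led by Pf4, itself a CXC chemokine outside the naming rule. None of these 5 lists had a gene called by edgeR, DESeq2 or limma-voom, with 1 gene at an unadjusted p under 0.05 in edgeR, Gp9 of platelets. Erythrocyte markers summed to 106 to 115 and 94.2 to 154 CPM, led by Hbb-bs, and epicardial markers to 4.11 to 5.31 and 3.32 to 4.42 CPM, led by Wt1, and none of their genes was called either, with Slc4a1 at an unadjusted p of 0.0266 in edgeR. Ventricular markers (9 tested, median -0.01) had 0 calls with these tools and 1 unadjusted p under 0.05, and in the atrial list Nppa, also a gene of the strained ventricle, rose (log2 fold change 1.31, SE 0.24, edgeR adjusted p 0.0146), a call lost without WT replicate 3 or 4 or A178D replicate 1 (adjusted p up to 0.086). Of the other tested atrial markers, Myl4 had 1.90, 1.89 and 1.85 CPM in WT and 4.01, 2.14, 2.60 and 3.06 CPM in A178D, each A178D heart above each WT heart (log2 fold change 0.65, SE 0.23, edgeR adjusted p 0.171). Nr2f2 had each A178D heart below each WT heart (log2 fold change -0.39, SE 0.11, edgeR adjusted p 0.0963), and DESeq2 called it lower. The atrial list summed to 265, 203 and 124 CPM in WT and 542, 377, 334 and 602.5 CPM in A178D, led by Nppa. The part of atrial tissue in these levels was not tested.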

How the data were processed

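The values analysed were the raw gene counts of the 7 libraries, as deposited by the authors; their second table, a signal made by dividing the counts by size factors, was not used. Their processing notes name bcl2fastq 2.18.0.12, HISAT2 2.1.0, SAMtools 1.6, DESeq2 1.26.0 and build GRCm38; the counting program and its strand setting are not given in the sources used here. Symbols, positions and exon lengths came from GENCODE release M21 by Ensembl identifier, and 300 of 21257 entries had no symbol. Entries with identical counts in every library were kept once if they had at least 30 counts, and with fewer only if they also shared an identifier, leaving 20927 entries. In each library 17.57 to 20.258% of counts from 1 to 20 were odd, so most fragments seem to be entered once per end. The 13894 genes that reached 10 counts in 3 or more libraries were tested with edgeR 4.0.16 (R 4.3.3; TMM, quasi-likelihood, two-sided), with Benjamini-Hochberg adjustment over all of them. DESeq2 1.42.0 and limma 3.58.1 (voom) were alternatives. The code was tested on simulated counts. Members given heart by heart were the 8 most abundant per kilobase, those with p under 0.05 or without overlap, their tested partners, and those at the limits; a member and a pathway gene that these rules take are not reported here. Members and lists were chosen with earlier results of these data known.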

Additional observations from a re-analysis of the deposited data

Results flagged for a closer look

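In the 21 members that the rule takes for values heart by heart, the 4 A178D hearts were searched for a heart that stands apart, its gap to the next heart set against the range of the group (Dixon's test, 95% limit). Such a heart was found in 3: Cxcr4 was low in A178D replicate 2 (4.40 CPM, gap over range 0.899), Ccr7 was high in A178D replicate 1 (0.793 CPM, 0.905) and Ackr2 was low in A178D replicate 1 (1.41 CPM, 0.904). Chance alone picks out about 1 in 20 groups in this way. The cause was not tested.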

How the results depend on the processing

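Cx3cr1 was called in 15 of 16 other settings (without WT replicate 3 it was not), Cx3cl1 in 7 and Ccl11 in 4, and no other member in any. The count of members called was 3 with DESeq2 and with no filter, 2 with limma-voom, with counts halved, with offsets for length and GC content and with the replicate block, and 0 to 3 without a single library. The whole-table count of 327 became 686 with DESeq2, 64 at an adjusted p under 0.01 and 53 to 453 without a single library. The 3 members without overlap were the same with DESeq2's size factors and in the table as deposited. Of 294 refitted log2 fold changes of named members 22 changed sign, none of them of a called gene: Ackr3 in limma-voom (-0.000807), with the block (-0.0425) and with the offsets (-0.0149), Cxcr4 with the offsets (-0.00726), and Ackr2 (-0.0551), Ccl5 (-0.27) and Ccr1 (-0.00738) with the block. Without a single library the log2 fold change ranged from -0.0545 to 0.103 in Ackr3, -0.11 to 0.19 in Cxcr4, -0.0376 to 0.176 in Ackr2, -0.34 to 1.03 in Ccl5, -0.20 to 0.54 in Ccr1 and -0.80 to 0.58 in Ccl22, where limma-voom gave -1.20 and the block -1.16. The cause was not tested. The replicate block called 271 genes in all. Deviations of same-numbered hearts correlated at 0.003, -0.04 and -0.042, and those of differently numbered hearts at -0.07 to 0.066. The labels do not say what the replicate numbers stand for, and whether same-numbered hearts share a factor was not tested. Members with few counts, such as Ccl19, Ccl22 and Ccr7, have wide intervals, and counting error is only part of their spread; the part of depth was not tested. With Nr4a1 left out of the monocyte markers, chosen after seeing the data, the ratio of A178D to WT in the percentage of Cx3cr1 was 1.79 beside 2.28.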
